A study of Mus musculus with 24 samples.

Results

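The response of MuRF1 knockdown HL-1 cells to cyclic stretch was measured by poly(A) RNA sequencing. HL-1 is a beating cell line that was derived from mouse atrial cardiomyocytes. Of the 24 libraries of the study, 12 were chosen by their titles: 6 of stretched knockdown cells and 6 of non-stretched knockdown cells. All 12 carried an adenovirus with a short hairpin RNA against MuRF1, added at 30 infectious particles per cell (MOI). After 48 h, the cells, grown on a flexible membrane, either received cyclic elongation of 15% (1 Hz, 60 min) or were left at rest (0 min). The medium had been changed to one without serum, and RNA was taken at the end of the stretch. The labels call the stretch uniaxial in some fields and biaxial in others, so its geometry cannot be given. Control cells, used for comparison only, had a scrambled hairpin at the same dose and were likewise stretched (6 libraries) or not (6 libraries). The knockdown is transient and in 1 cell line, and the design text gives the loss of protein only as a lower limit. The labels do not state that the replicates are separate cultures, so a p-value weighs a change only against the spread among these libraries, which may be technical.

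MuRF1, encoded by Trim63, is a muscle-specific ubiquitin ligase that sits on the sarcomere and marks contractile proteins for degradation. Stretch of cardiomyocytes is sensed at integrins, stretch-gated channels and the titin spring of the sarcomere, and the signal reaches the nucleus through MAP kinases and actin-dependent transcription factors. The genes that answer first are immediate early genes, switched on without new protein synthesis. They encode transcription factors such as the AP-1 subunits, and feedback inhibitors that shut the signal off. Serum response factor (SRF) joins both branches, since it drives early genes as well as genes of the cytoskeleton and sarcomere.

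The 12 knockdown libraries held 37.7 to 52.0 M estimated counts. On the first principal component of these libraries, which held 16.4% of the variance, stretched libraries lay at 4.35 to 15.3 and non-stretched libraries at -15.2 to 1.21, without overlap. Non-stretched replicate 4 stood apart on the second component, at -20.6, and had the highest share of mitochondrially encoded transcripts, 3.67% of counts against 2.50% to 2.90% in the other 11 knockdown libraries. Non-stretched replicate 6 lay at the other end of that component, at 15.5, and was left out only in a fit of its own. Stretched control replicate 5, with 23.6 M counts, stood apart among the control libraries. It enters the knockdown comparison only through the scaling, the filter on low counts and the shared estimate of the spread. The library codes carry 1 digit per group whose meaning the labels leave out, and anything it marks cannot be told apart from the group. The codes also carry a letter, a for replicates 1, 2 and 3 and b for replicates 4, 5 and 6. On the third component, with 10.8% of the variance, the non-stretched libraries split by this letter. Those with a lay at -13.2 to -10.5 and those with b at 2.35 to 13.1. Stretched libraries did not split, at -4.63 to 7.40 with a and 1.77 to 3.59 with b. The cause of the split was not tested.

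Levels are CPM (estimated counts per M counts of the TMM-scaled library), given as the lowest, median and highest of 6 libraries, in knockdown cells unless control cells are named. Each log2 fold change is stretched over non-stretched, with its standard error (SE) and a p adjusted by Benjamini-Hochberg over all genes from edgeR's quasi-likelihood test; rose and fell are said of genes with an adjusted p below 0.05. Trim63, the target of the hairpin, had 60.0, 67.1 and 83.5 CPM in stretched cells, against 54.2, 55.6 and 57.4 CPM in non-stretched cells. All 6 stretched libraries lay above all 6 non-stretched ones, and stretched replicate 1 was the highest by a wide gap. The log2 fold change was 0.30 (adjusted p = 0.0129, SE 0.0754). Under the scrambled hairpin, Trim63 had 687, 783 and 882 CPM in stretched control cells, against 536, 641 and 707 CPM in non-stretched control cells. The residual Trim63 transcript of knockdown cells changed with stretch by a log2 fold change close to that of control cells, 0.29 (adjusted p = 0.0174, SE 0.0718), with a difference of 0.01 (adjusted p = 0.988, SE 0.104). Trim55, which encodes the related ligase MuRF2, had 16.8, 18.8 and 20.9 CPM in stretched cells, against 15.9, 16.7 and 17.3 CPM in non-stretched cells, a log2 fold change of 0.19 (adjusted p = 0.00927, SE 0.0464). Its groups overlapped. Trim54, the gene of MuRF3, averaged 0 to 0.667 counts per group and was not tested.

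Stretch shifted many genes by small amounts and few by large ones. Of 14411 genes tested, 1287 (8.93%) passed an adjusted p of 0.05 in knockdown cells. Of these, 767 were higher with stretch (5.32% of the genes tested) and 520 were lower (3.61%). The median log2 fold change was 0.19 among the risen genes, -0.19 among the fallen genes and -0.0054 over all genes tested. Beyond 1.2-fold, 259 rose and 122 fell; beyond 1.5-fold, 121 rose and 9 fell; and beyond 2-fold, 42 rose and 2 fell. Most of the largest folds belonged to scarce transcripts, since 29 of the 42 genes that rose more than 2-fold averaged below 1 CPM. Above 5 CPM, only Fosb and Thbs1 rose more than 2-fold. The 6 stretched and 6 non-stretched libraries did not overlap in 782 genes (5.43%), among them 650 of the called genes, 434 that rose and 216 that fell. Risen genes were more abundant, with a median level of 48.4 CPM in knockdown cells, than fallen genes, with 19.8 CPM, and all genes tested, with 26.0 CPM. Rises made up 59.6% of the calls, 56.1% to 65.4% under other tools, scalings and filters and with 1 library left out, and 52.8% with GC content and length removed. Without the 2 libraries that stood apart 1104 genes rose and 1112 fell, a share of 49.8%. Counts of list members below are to be set against 5.32% of all genes tested higher and 3.61% lower. For many lists whose count moved over 9 further fits, the range is given, and a list without a range may have moved as well. These fits were DESeq2, limma-voom, the normalization factors of the authors' table, the replicate block and the knockdown libraries alone. The others had GC content and length removed, or either or both of those libraries left out.

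**Figure D1:**
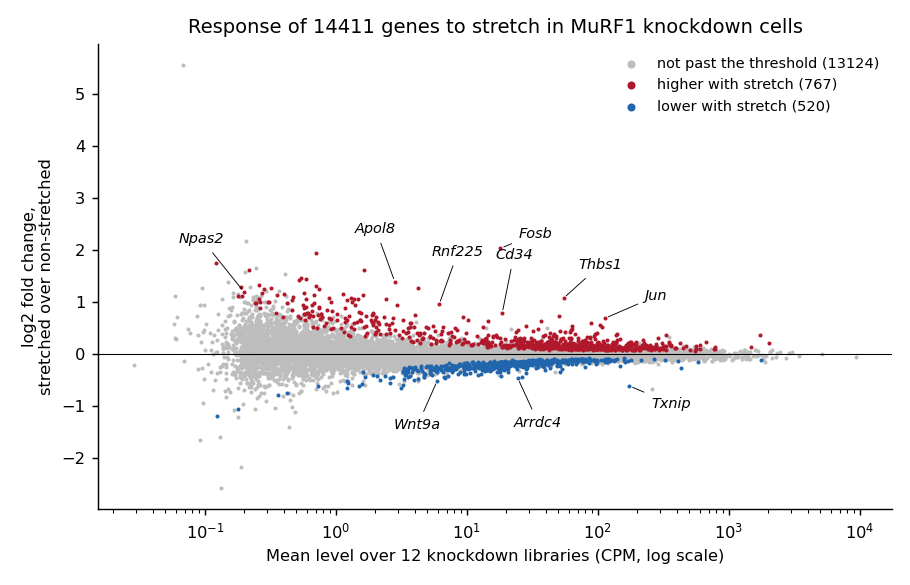
Log2 fold change of stretched over non-stretched MuRF1 knockdown cells (y axis) against the mean level over the 12 knockdown libraries in CPM (x axis, log scale), 1 point per gene tested; red points are the 767 genes that rose, blue points the 520 that fell and grey points the rest. Most coloured points lie within 1.5-fold of no change, and Fosb, at 2.04, stands above every other gene of similar level.

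Transcription factors of the AP-1 family, dimers of Fos, Jun, Atf and Maf proteins, were among the genes that rose. Of 15 tested members and partners, 8 rose and 1 fell, with a median log2 fold change of 0.205 against -0.0054 over all genes. Fosb, a Fos subunit, had 20.8, 27.6 and 38.5 CPM in stretched cells, against 5.41, 6.92 and 9.45 CPM in non-stretched cells. Every stretched library stood at least 2-fold above every non-stretched one, and stretched replicates 1 and 2 were the highest. The log2 fold change was 2.04 (adjusted p = 2.95e-07, SE 0.191). Jun, the founding Jun subunit, had 134, 137 and 153 CPM in stretched cells, against 77.3, 81.2 and 112 CPM in non-stretched cells, a log2 fold change of 0.69 (adjusted p = 0.000103, SE 0.103). Its groups did not overlap, although non-stretched replicate 6 was well above the other 5 non-stretched libraries. Fosl2, a Fos relative, had 72.8, 75.3 and 76.5 CPM in stretched cells, against 45.9, 52.2 and 54.6 CPM in non-stretched cells. It changed less than Fosb but had the smallest adjusted p of all genes, with a log2 fold change of 0.54 (adjusted p = 5.18e-10, SE 0.0372) and tight, separate groups. Atf3, a stress-induced partner that often represses, had 119.7, 123 and 133 CPM in stretched cells, against 78.0, 82.9 and 93.6 CPM in non-stretched cells, a log2 fold change of 0.57 (adjusted p = 1.24e-05, SE 0.0731), again without overlap. Maff, a small Maf protein without an activation domain, rose by 0.29 (adjusted p = 2.95e-07, SE 0.0300) with separate groups. Jdp2, a repressor that pairs with Jun, was the member that fell, with a log2 fold change of -0.17 (adjusted p = 0.00814, SE 0.0403). Fos itself, the best-known early gene, had 20.1, 24.8 and 31.5 CPM in stretched cells, against 14.9, 16.1 and 25.9 CPM in non-stretched cells. The groups overlapped and the log2 fold change of 0.50 (adjusted p = 0.158, SE 0.210) did not pass.

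**Figure D2:**
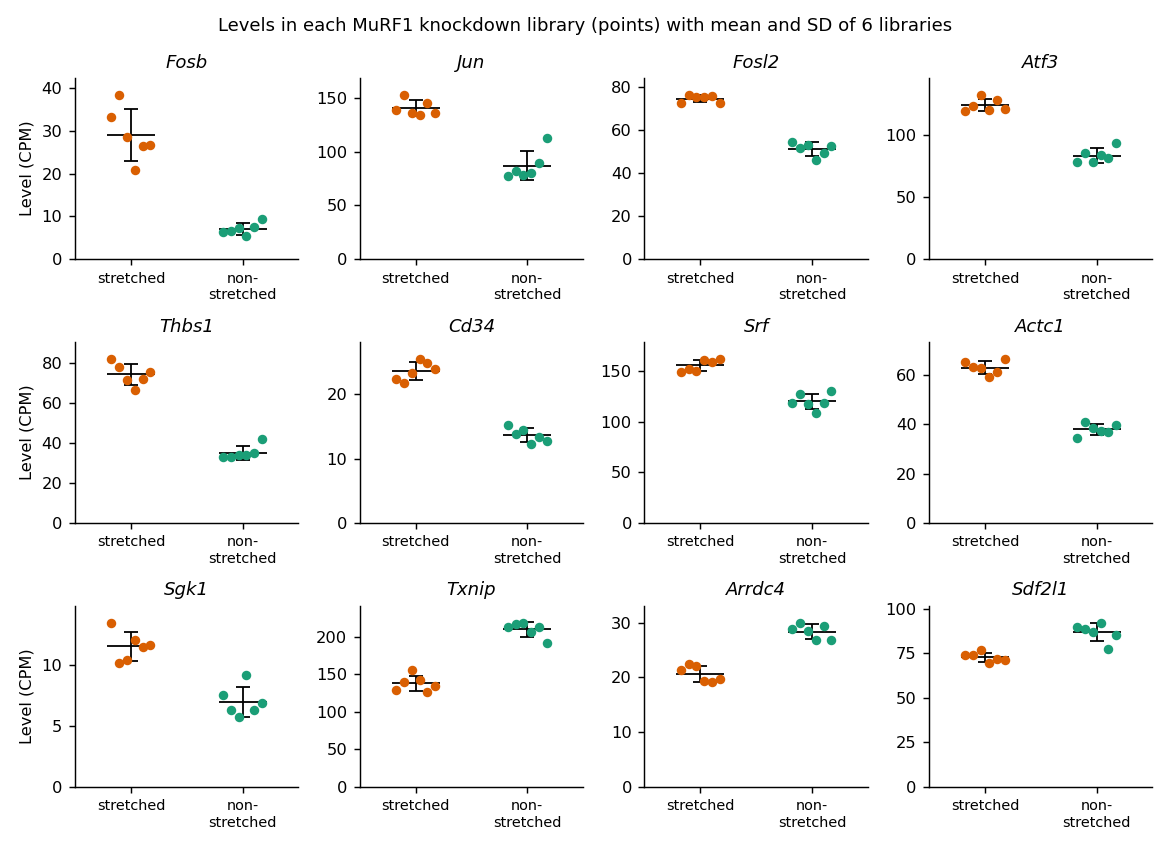
Level in CPM (y axes, starting at 0) of 12 genes in the 6 stretched (left, orange) and 6 non-stretched (right, green) MuRF1 knockdown libraries; each point is 1 library, and bars give the mean and SD. The groups do not overlap for any of the 12 genes, with Fosb at 20.8 to 38.5 CPM in stretched and 5.41 to 9.45 CPM in non-stretched cells, and Txnip, Arrdc4 and Sdf2l1 are lower in every stretched library.

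The other early genes followed in part. Among 9 Egr, Nab and Nr4a genes, 3 rose and none fell, with a median of 0.09. Egr4 and Egr2, zinc finger factors of the early growth response family, rose by 1.06 (adjusted p = 0.000115, SE 0.167) and 0.96 (adjusted p = 0.00547, SE 0.214), but at low levels, with medians of 1.85 CPM with stretch and 0.956 CPM without for Egr4 and medians of 3.75 CPM with stretch and 1.86 CPM without for Egr2. The orphan nuclear receptor Nr4a1 rose by 0.23 (adjusted p = 0.0133, SE 0.0599). Egr1, the most abundant of the family, had 91.7, 122 and 189 CPM in stretched cells, against 105, 124 and 198 CPM in non-stretched cells. Its groups spanned nearly the same range and its log2 fold change of -0.11 (adjusted p = 0.845, SE 0.239) did not pass. Among 30 other immediate early genes, 13 rose and none fell, with a median of 0.185. Sgk1, a serum- and glucocorticoid-induced kinase, had 10.2, 11.6 and 13.5 CPM in stretched cells, against 5.78, 6.61 and 9.20 CPM in non-stretched cells, a log2 fold change of 0.73 (adjusted p = 4.26e-06, SE 0.0892) with separate groups. Ier5 had 102, 104 and 108 CPM in stretched cells, against 76.9, 80.4 and 89.6 CPM in non-stretched cells, a log2 fold change of 0.35 (adjusted p = 2.1e-07, SE 0.0353), also without overlap. The polo-like kinase Plk2 rose by 0.40 (adjusted p = 0.000501, SE 0.0707).

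Krüppel-like factors, zinc finger proteins that bind GC-rich elements, moved both ways, with 5 of 13 tested members higher and 2 lower. Klf7 rose by 0.43 (adjusted p = 1.39e-07, SE 0.0421), with 66.8, 70.8 and 75.6 CPM in stretched cells, against 47.7, 51.7 and 57.4 CPM in non-stretched cells. Klf6 rose by 0.39 (adjusted p = 3.87e-05, SE 0.0562) and Klf11 by 0.19 (adjusted p = 0.000440, SE 0.0339). Klf10, which is induced by TGF-beta, had 42.6, 45.5 and 48.2 CPM in stretched cells, against 52.0, 55.5 and 68.2 CPM in non-stretched cells, a log2 fold change of -0.33 (adjusted p = 0.000204, SE 0.0552). Klf15, a repressor of cardiac hypertrophy and a regulator of amino acid and glucose use, fell by 0.37 (adjusted p = 0.00275, SE 0.0782). Klf10, however, no longer passed with the authors' factors (adjusted p = 0.217). Of the 13 members, 3 rose with those factors and without non-stretched replicate 4, and 7 rose at most in the 9 other fits.

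Some feedback genes rose beside the early factors. Dusp genes encode phosphatases that switch MAP kinases off, and of 17 Dusp, Spry and Spred genes tested, 6 rose and 1 fell, with a median of 0.02. Dusp8, which acts on the stress kinases JNK and p38, had 98.7, 110.1 and 113 CPM in stretched cells, against 68.1, 71.3 and 73.9 CPM in non-stretched cells. All stretched libraries lay above all non-stretched ones, by a log2 fold change of 0.60 (adjusted p = 1.31e-07, SE 0.0563). Dusp5, a nuclear phosphatase for ERK, had 16.6, 17.5 and 18.9 CPM in stretched cells, against 9.85, 11.0 and 13.8 CPM in non-stretched cells, a log2 fold change of 0.63 (adjusted p = 1.21e-05, SE 0.0831), and Dusp10 rose by 0.37 (adjusted p = 3.47e-05, SE 0.0522). Dusp7, the member that fell, had a log2 fold change of -0.18 (adjusted p = 0.0365, SE 0.0532), a call that was lost in 8 of the 12 fits that left out 1 knockdown library each. A second kind of feedback acts on the transcripts themselves. Among 30 genes of mRNA decay and translation repression, 9 rose and none fell, with a median of 0.09. Zfp36l2, which binds AU-rich elements and recruits deadenylases, had 189.9, 192 and 195 CPM in stretched cells, against 164, 169 and 171 CPM in non-stretched cells, a log2 fold change of 0.19 (adjusted p = 4.72e-07, SE 0.0202). The antiproliferative deadenylase adaptors Tob2 and Btg1 rose by 0.34 (adjusted p = 1.65e-06, SE 0.0391) and 0.31 (adjusted p = 1.02e-05, SE 0.0401).

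Single genes outside these lists changed as well. Ppp1r10, a nuclear targeting subunit of protein phosphatase 1, had 118, 125 and 134 CPM in stretched cells, against 80.1, 88.1 and 92.8 CPM in non-stretched cells, a log2 fold change of 0.52 (adjusted p = 1.7e-09, SE 0.0391). Ccnl1, a cyclin of the splicing-linked kinases, had 38.1, 47.0 and 47.9 CPM in stretched cells, against 24.9, 27.8 and 34.1 CPM in non-stretched cells, a log2 fold change of 0.65 (adjusted p = 5.31e-06, SE 0.0789). Clk2, a kinase of splicing factors, moved the other way, with 17.4, 23.4 and 25.3 CPM in stretched cells, against 26.2, 31.2 and 32.9 CPM in non-stretched cells. None of these genes had overlapping groups, and the log2 fold change of Clk2 was -0.44 (adjusted p = 0.000112, SE 0.0684). Wsb1, a substrate receptor of a ubiquitin ligase, rose by 0.38 (adjusted p = 2.15e-07, SE 0.0385), and Mroh2a rose by 0.45 (adjusted p = 2.15e-07, SE 0.0453). Mcl1, an anti-apoptotic Bcl2 relative with a short-lived transcript, rose by 0.20 (adjusted p = 6.55e-05, SE 0.0302) and was the 1 of 22 apoptosis regulators that passed, against 1 to 2 higher and up to 2 lower in the 9 other fits. A count of 1 in 22 is near the 5.32% of all genes tested that rose.

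Some genes of the SRF programme rose. Of 32 tested genes for SRF, its cofactors and their targets, 9 rose, none fell and 23 did not pass, with a median log2 fold change of 0.09 and a lowest value of -0.04. Srf itself had 149.7, 156 and 163 CPM in stretched cells, against 109, 119 and 130.2 CPM in non-stretched cells, a log2 fold change of 0.37 (adjusted p = 3.13e-06, SE 0.0449). Fhl2, a LIM protein that binds SRF and titin, had 41.5, 44.9 and 47.7 CPM in stretched cells, against 30.8, 35.0 and 36.3 CPM in non-stretched cells, a log2 fold change of 0.38 (adjusted p = 3.86e-06, SE 0.0463). Lima1, an actin-bundling protein also known as EPLIN, rose by 0.24 (adjusted p = 1.65e-06, SE 0.0272), vinculin (Vcl), which ties actin to integrins, by 0.16 (adjusted p = 0.000637, SE 0.0289), and the SRF coactivator myocardin (Myocd) by 0.15 (adjusted p = 0.00787, SE 0.0349). Groups of Srf, Fhl2, Lima1 and Vcl did not overlap. In the 9 other fits 8 to 16 of the 32 rose, 8 with the authors' factors and 16 without stretched control replicate 5. Myocd did not pass with the authors' factors (adjusted p = 0.246).

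Promoter sequences are shown for some named genes of the early, SRF and glucose-sensing lists that rose or fell. Only genes that hold an element could be shown, so the presence of elements in them is no finding. Of the genes taken in order of adjusted p, the first 6 that hold one of 4 elements in the 250 bases before a RefSeq start are given, on build GRCm38.p6, 5′ to 3′ in the direction of transcription. Capitals mark the matches, found on both strands: the CRE (TGACGTCA), the AP-1 site (TGANTCA), the E-box (CACGTG) and the CArG box of SRF. No match below overlaps another.
Srf (chr17:46556163-46556412, minus strand): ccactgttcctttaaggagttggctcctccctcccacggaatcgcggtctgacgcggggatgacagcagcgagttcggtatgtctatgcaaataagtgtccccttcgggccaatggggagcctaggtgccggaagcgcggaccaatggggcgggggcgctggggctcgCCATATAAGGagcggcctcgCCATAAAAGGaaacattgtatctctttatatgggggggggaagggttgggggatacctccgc
Fhl2 (chr1:43196762-43197011, minus strand): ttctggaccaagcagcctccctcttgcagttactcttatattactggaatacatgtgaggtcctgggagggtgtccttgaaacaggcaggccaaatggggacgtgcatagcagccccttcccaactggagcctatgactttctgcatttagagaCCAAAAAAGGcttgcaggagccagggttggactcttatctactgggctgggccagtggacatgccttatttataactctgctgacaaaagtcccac
Lima1 (chr15:99820150-99820399, minus strand): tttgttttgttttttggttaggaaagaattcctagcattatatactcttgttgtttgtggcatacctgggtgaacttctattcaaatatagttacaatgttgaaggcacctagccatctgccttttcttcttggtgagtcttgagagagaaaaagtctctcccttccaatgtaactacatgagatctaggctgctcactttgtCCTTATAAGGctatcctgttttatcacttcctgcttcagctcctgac
Maff (chr15:79347270-79347519, plus strand): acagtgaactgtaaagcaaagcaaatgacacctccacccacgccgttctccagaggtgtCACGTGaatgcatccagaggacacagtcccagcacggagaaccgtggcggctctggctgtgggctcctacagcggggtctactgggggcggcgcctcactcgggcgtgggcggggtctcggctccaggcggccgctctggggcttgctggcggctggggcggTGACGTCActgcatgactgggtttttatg
Sgk1 (chr10:21993640-21993889, plus strand): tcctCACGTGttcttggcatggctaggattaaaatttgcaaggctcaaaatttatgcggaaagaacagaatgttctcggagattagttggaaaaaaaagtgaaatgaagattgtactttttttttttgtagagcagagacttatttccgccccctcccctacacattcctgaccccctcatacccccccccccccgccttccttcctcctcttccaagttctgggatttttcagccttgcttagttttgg
Arrdc4 (chr7:68749239-68749488, minus strand): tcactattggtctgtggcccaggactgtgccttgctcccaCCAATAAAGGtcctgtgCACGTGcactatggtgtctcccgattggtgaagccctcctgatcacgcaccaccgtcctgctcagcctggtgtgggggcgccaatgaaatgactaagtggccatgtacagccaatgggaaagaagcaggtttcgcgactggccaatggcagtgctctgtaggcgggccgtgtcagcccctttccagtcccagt

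In these windows Srf held 2 CArG boxes, which ended 73 and 53 bases before the start, and Lima1 and Fhl2 held 1 each, ending 38 and 87 bases before it. Maff held a CRE and an E-box at 1 of its 3 starts in the table, Sgk1 an E-box at 1 of its 6 starts, and Arrdc4, which fell, an E-box beside a CArG box. Fosl2, Klf7, Txnip, Ier5 and Fosb, which came before Maff in that order, held none of the 4 elements in the same window. As a description, a CArG box stood in 3.62% of the 774 windows of risen genes, in 1.04% of the 482 windows of fallen genes, in 1.22% of the 13407 windows of tested genes and in 1.47% of all 32851 windows. A CRE stood in 3.75% of the windows of risen genes, 3.11% of those of fallen genes and 2.42% of those of tested genes (1.55% of all). AP-1 sites stood in 4.91% of the windows of risen genes, 3.11% of those of fallen genes and 4.74% of those of tested genes (6.75% of all), and E-boxes in 9.43% of those of risen genes, 7.68% of those of fallen genes and 7.94% of those of tested genes (6.02% of all). No test was made of these shares, and 10541 of the 14411 tested genes had an entry. A match says nothing of whether a factor was bound.

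Some heart muscle genes rose as well. Among 27 sarcomere genes 6 rose and none fell, with a median of 0.12. Actc1, cardiac alpha-actin, had 59.2, 63.0 and 66.6 CPM in stretched cells, against 34.3, 38.0 and 40.9 CPM in non-stretched cells, a log2 fold change of 0.73 (adjusted p = 2.15e-07, SE 0.0712). Every stretched library lay well above every non-stretched library. Acta1, skeletal alpha-actin, rose by 0.39 (adjusted p = 0.0279, SE 0.112). Its call was lost in 7 of the 12 fits that left out 1 knockdown library. Acta1 is similar in sequence to Actc1, and whether the counting divided reads between them was not tested. Unc45b, a chaperone of myosin, rose by 0.21 (adjusted p = 0.000120, SE 0.0326). In the 9 other fits 4 to 11 sarcomere genes rose, 4 with limma-voom, the authors' factors or without non-stretched replicate 4, and 11 without stretched control replicate 5. Among 20 titin-linked and Z-disc genes 6 rose and none fell, with a median of 0.13. Ankrd1, a cardiac ankyrin repeat protein that binds titin and moves to the nucleus, had 360.2, 368 and 397 CPM in stretched cells, against 263, 291 and 308 CPM in non-stretched cells, a log2 fold change of 0.38 (adjusted p = 0.000540, SE 0.0669).

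Among 29 genes of calcium handling and ion channels, 7 rose and none fell, with a median of 0.11. The L-type calcium channel Cacna1c had 31.5, 32.3 and 33.8 CPM in stretched cells, against 23.1, 28.2 and 29.8 CPM in non-stretched cells, a log2 fold change of 0.23 (adjusted p = 0.00685, SE 0.0530). Phospholamban (Pln), the brake of the calcium pump, rose by 0.36 (adjusted p = 0.0114, SE 0.0890), and the calcium release channel Ryr2 by 0.15 (adjusted p = 0.0131, SE 0.0375). Ryr2 did not pass with GC content and length removed (adjusted p = 0.0685). In the 9 other fits 5 to 11 members rose, 5 without non-stretched replicate 4 and 11 without stretched control replicate 5 or with DESeq2. Non-stretched replicate 4 was the lowest library for Cacna1c and the highest for Pln. Of the receptors that set heart rate, the muscarinic receptor Chrm2 rose by 0.30 (adjusted p = 0.00236, SE 0.0625) and the beta-1 adrenergic receptor Adrb1 fell by 0.28 (adjusted p = 0.000337, SE 0.0482).

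Among 20 cardiac transcription factors 4 rose and 1, Gata5, fell; in the 9 other fits 3 to 6 rose. Gata6, a zinc finger activator of heart genes, rose by 0.21 (adjusted p = 0.000187, SE 0.0343), whereas its relative Gata5 fell by 0.23 (adjusted p = 0.0435, SE 0.0718), a call lost in 9 of the 12 fits that left out 1 knockdown library. Outside that list, Tbx1, a T-box factor of the second heart field, fell, with 7.85, 8.66 and 9.05 CPM in stretched cells, against 9.28, 11.1 and 12.9 CPM in non-stretched cells and a log2 fold change of -0.37 (adjusted p = 0.00335, SE 0.0794). Of 18 tested genes of natriuretic peptides and hypertrophy markers 4 rose and none fell, against 3 to 4 higher and up to 2 lower in the 9 other fits. The natriuretic peptide and cardiac myosin genes among the classical markers were scarce in these cells. Nppa had 0.334, 0.560 and 0.759 CPM in stretched cells, against 0.238, 0.400 and 0.530 CPM in non-stretched cells, and Nppb had 0.996, 1.06 and 1.33 CPM in stretched cells, against 0.602, 0.875 and 1.39 CPM in non-stretched cells. Both natriuretic peptide genes overlapped between the groups, and neither log2 fold change passed, at 0.42 (adjusted p = 0.310, SE 0.238) and 0.27 (adjusted p = 0.438, SE 0.188). Myh6, the fast cardiac myosin, had 2.13, 2.60 and 3.73 CPM in stretched cells, against 1.80, 2.06 and 2.33 CPM in non-stretched cells, a log2 fold change of 0.40 (adjusted p = 0.0288, SE 0.115) that was lost in 5 leave-out fits and with the authors' factors (adjusted p = 0.677). Myh7, the slow cardiac myosin, averaged 4.57 to 7.61 counts per group and was not tested. Corin, the protease that activates atrial natriuretic peptide, rose by 0.33 (adjusted p = 0.000458, SE 0.0579).

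The cells were set against marker lists. The summed level of 8 cardiomyocyte markers was 1060 to 1130 CPM in stretched and 910 to 984 CPM in non-stretched libraries, with Tnnt2 leading. Of the 8 markers 6 rose, with a median log2 fold change of 0.28, against 3 with the authors' factors (median 0.206), 4 with limma-voom, 4 without non-stretched replicate 4 and up to 7 in the 9 other fits. Atrial markers, 5 in number with 2 under 1 CPM in every knockdown library, summed to 179 to 191 CPM in stretched and 169 to 187 CPM in non-stretched libraries. Of the 4 tested none rose or fell, with a median of 0.131, and up to 1 rose in the 9 other fits. In bulk samples, fewer cells of a type and less RNA per cell cannot be told apart. Fibroblast markers summed to 95.6 to 101 CPM in stretched and 80.0 to 97.4 CPM in non-stretched libraries. All 6 tested were positive, with a median of 0.143, but none passed, and up to 1 rose in the 9 other fits. Endothelial markers summed to 8.02 to 8.50 CPM in stretched and 7.48 to 9.24 CPM in non-stretched libraries, with 6 of 8 markers under 1 CPM in every library. Smooth muscle markers, led by Acta2, summed to 1730 to 1820 CPM in stretched and 1610 to 1750 CPM in non-stretched libraries. All 5 tested were positive, with a median of 0.09, but none passed, and up to 2 rose in the 9 other fits. Macrophage markers summed to 3.01 to 4.06 CPM in stretched and 2.18 to 2.93 CPM in non-stretched libraries, most of it Cd68, a lysosomal glycoprotein that rose by 0.58 (adjusted p = 0.00340, SE 0.125). Of the 8 macrophage markers 7 were in the deposited counts, which hold no gene at 0 in every library of the study. No marker that was present there was at 0 in all knockdown libraries. The part of other cell types in the results was not tested.

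Secreted and surface proteins included some of the largest rises. Thbs1, thrombospondin-1, a matrix protein that activates latent TGF-beta, had 66.7, 73.7 and 82.2 CPM in stretched cells, against 32.9, 34.0 and 42.1 CPM in non-stretched cells, a log2 fold change of 1.08 (adjusted p = 4.81e-08, SE 0.0893). The groups lay far apart even though non-stretched replicate 6 exceeded the other 5 non-stretched libraries. Thbs2 rose by 0.18 (adjusted p = 0.000972, SE 0.0347), and of 15 matricellular genes 4 rose and none fell, with a median of 0.125. Connective tissue growth factor (Ctgf, now Ccn2) had 142, 155 and 174 CPM in stretched cells, against 107, 118 and 141 CPM in non-stretched cells, a log2 fold change of 0.39 (adjusted p = 0.0119, SE 0.0963). Its relative Cyr61 (now Ccn1) had 336, 379 and 456 CPM in stretched cells, against 266, 287 and 404 CPM in non-stretched cells, with overlapping groups and a log2 fold change of 0.32 (adjusted p = 0.288, SE 0.174) that did not pass. Cd34, a sialomucin of progenitor and endothelial cells, had 21.7, 23.7 and 25.5 CPM in stretched cells, against 12.3, 13.6 and 15.1 CPM in non-stretched cells, a log2 fold change of 0.79 (adjusted p = 7.19e-10, SE 0.0563). The 3 endothelial markers high enough to be tested did not pass. The matrix protease Adamts1 rose by 0.30 (adjusted p = 0.000510, SE 0.0537), and Adam1a, of the ADAM family, by 0.67 (adjusted p = 0.000445, SE 0.116).

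Among 34 growth factors and cytokines 5 rose and none fell, with a median of -0.02. Fgf16, a growth factor made by heart muscle, rose by 0.29 (adjusted p = 4.98e-05, SE 0.0419), the vessel-stabilizing ligand Angpt1 by 0.50 (adjusted p = 0.00141, SE 0.0979), and the vasodilator peptide adrenomedullin (Adm) by 0.35 (adjusted p = 0.00364, SE 0.0750). Wnt9a, a Wnt ligand, fell, with 4.32, 5.13 and 5.20 CPM in stretched cells, against 6.12, 7.21 and 7.56 CPM in non-stretched cells and a log2 fold change of -0.50 (adjusted p = 1.3e-05, SE 0.0667). Of 31 Wnt pathway genes 3 rose and 2 fell, against 5.32% higher and 3.61% lower over all genes tested. In the 9 other fits 1 to 5 fell, 1 without non-stretched replicate 4 or with the authors' factors. Junction genes rose in small numbers, with 3 of 13 tight junction genes and 5 of 33 integrin, cadherin and adaptor genes higher and none lower. Cldn15, a claudin, had 2.30, 3.41 and 3.80 CPM in stretched cells, against 1.42, 1.52 and 1.82 CPM in non-stretched cells, a log2 fold change of 1.05 (adjusted p = 2.57e-06, SE 0.125). The junction adhesion molecule F11r rose by 0.11 (adjusted p = 0.00655, SE 0.0256) and N-cadherin (Cdh2) by 0.11 (adjusted p = 0.00944, SE 0.0269). Among 22 genes of the stretch-sensitive YAP and TEAD pathway 4 rose and 1 fell, with a median of 0.01. The 1 fall was near the 3.61% of all genes tested that fell. In the 9 other fits none to 1 fell and 3 to 6 rose. Amotl2, an angiomotin that holds YAP at junctions, rose by 0.27 (adjusted p = 4.76e-05, SE 0.0397), and the YAP kinase Lats2 by 0.12 (adjusted p = 0.00813, SE 0.0287). Vgll3, a TEAD cofactor with medians of 0.273 CPM with stretch and 0.458 CPM without, fell by 0.78 (adjusted p = 0.0396, SE 0.240), a call lost in 7 of the 12 leave-out fits.

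Among 21 muscle ubiquitin ligases 5 rose and none fell, with a median of 0.06, Trim63 and Trim55 among them. Fbxl22, an F-box protein of the sarcomeric Z-disc, had 4.71, 5.12 and 5.38 CPM in stretched cells, against 2.53, 2.95 and 3.42 CPM in non-stretched cells, a log2 fold change of 0.76 (adjusted p = 1.22e-07, SE 0.0719). Cblb, a ligase that curbs growth factor receptors and insulin receptor substrate, rose by 0.17 (adjusted p = 0.00155, SE 0.0329). Outside that list, the RING finger gene Rnf225 had 6.78, 7.98 and 9.62 CPM in stretched cells, against 3.55, 4.26 and 4.80 CPM in non-stretched cells, with separate groups and a log2 fold change of 0.96 (adjusted p = 1.39e-07, SE 0.0927). Of 31 proteasome subunits tested none rose and none fell in edgeR (1 at an unadjusted p below 0.05), DESeq2 or limma-voom, and 2 rose with GC content and length removed.

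The fall with the smallest adjusted p was in a gene of glucose sensing. Txnip, an arrestin that binds thioredoxin and holds back glucose uptake, had 127, 137 and 155 CPM in stretched cells, against 191, 213 and 219 CPM in non-stretched cells. Every stretched library lay below every non-stretched one, by a log2 fold change of -0.61 (adjusted p = 1.9e-07, SE 0.0587). Its paralogue Arrdc4, whose promoter is shown above, had 19.1, 20.5 and 22.5 CPM in stretched cells, against 26.8, 28.6 and 30.0 CPM in non-stretched cells, a log2 fold change of -0.46 (adjusted p = 3.86e-06, SE 0.0559), and Arrdc2 fell by 0.26 (adjusted p = 0.0125, SE 0.0651). Of 15 genes of this list 2 rose and 3 fell, and in the 9 other fits 1 to 2 rose and 2 to 3 fell. Outside these lists, Ppp1r3d, which brings a phosphatase to glycogen, had 35.1, 35.6 and 36.5 CPM in stretched cells, against 40.0, 42.5 and 44.6 CPM in non-stretched cells, a log2 fold change of -0.25 (adjusted p = 2.2e-06, SE 0.0295). Foxo1, a transcription factor that insulin signalling excludes from the nucleus, fell by 0.21 (adjusted p = 0.000180, SE 0.0341). Among 33 glycolysis and glycogen genes 2 rose and 1 fell, and in the 9 other fits 1 to 5 rose, 1 without non-stretched replicate 4 and 5 without stretched control replicate 5. The counts of 2 and 1 were near the shares of all genes tested, 5.32% higher and 3.61% lower. The muscle glycogen phosphorylase Pygm rose by 0.66 (adjusted p = 0.000186, SE 0.108), and the glycogen synthase Gys1, the member that fell, had a log2 fold change of -0.11 (adjusted p = 0.0439, SE 0.0343), a call lost in 10 of the 12 leave-out fits. Cpt1a, which admits fatty acids to mitochondria, rose by 0.14 (adjusted p = 0.00251, SE 0.0288).

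Some sterol genes rose, in small steps. Of 32 genes of cholesterol and fatty acid synthesis 6 rose and none fell, with 28 positive and a median of 0.09. Hsd17b7, an enzyme of the cholesterol pathway, had 86.7, 92.1 and 97.8 CPM in stretched cells, against 67.8, 72.1 and 77.2 CPM in non-stretched cells, a log2 fold change of 0.34 (adjusted p = 1.84e-05, SE 0.0465). Outside that list, Star, which carries cholesterol into mitochondria for steroid synthesis, had 14.7, 15.7 and 16.4 CPM in stretched cells, against 10.2, 10.8 and 11.5 CPM in non-stretched cells, a log2 fold change of 0.53 (adjusted p = 6.55e-08, SE 0.0482). Both had separate groups. In the 9 other fits 6 to 11 of the 32 rose, 11 with GC content and length removed.

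Protein folding genes moved in small numbers. Of 25 genes of the unfolded protein response and endoplasmic reticulum folding, none rose and 5 fell, with only 2 positive and a median of -0.06. Sdf2l1, a chaperone cofactor, had 69.8, 72.9 and 76.8 CPM in stretched cells, against 77.7, 88.1 and 92.4 CPM in non-stretched cells, a log2 fold change of -0.25 (adjusted p = 4.67e-05, SE 0.0367). Creld2 and the disulfide isomerase Pdia6 had log2 fold changes of -0.16 (adjusted p = 0.00947, SE 0.0391) and -0.14 (adjusted p = 0.0149, SE 0.0366). Non-stretched replicate 4 had the highest Pdia6 level, and without that library 5 of the 25 genes fell; with GC content and length removed 9 fell. Of 32 heat shock proteins and cochaperones, mostly of the cytosol, 6 rose and none fell, at a median of -0.0044. Dnajb4, a cochaperone of Hsp70, had 69.5, 72.6 and 75.4 CPM in stretched cells, against 49.7, 51.9 and 57.4 CPM in non-stretched cells, a log2 fold change of 0.47 (adjusted p = 2.2e-06, SE 0.0548). Bag3 and Hspb8, which form a complex that clears damaged filamin at the Z-disc, rose by 0.24 (adjusted p = 2.45e-05, SE 0.0333) and 0.18 (adjusted p = 6.48e-05, SE 0.0272). In the 9 other fits 5 to 9 of these 32 rose and up to 2 fell. In the integrated stress response 2 of 33 genes rose, near the 5.32% of all genes tested, and 4 fell, against 3.61% of all genes. Its factor Atf4 rose by 0.10 (adjusted p = 0.0129, SE 0.0250), while Ddit3 (CHOP) and the pseudokinase Trib3, both induced by Atf4, fell, with log2 fold changes of -0.29 (adjusted p = 0.00110, SE 0.0559) and -0.18 (adjusted p = 0.00764, SE 0.0426). In the 9 other fits 3 to 10 members fell, with 9 without stretched control replicate 5.

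The other falls were mostly modest. Among 258 numbered Zfp genes of 3 digits, 15 rose and 30 fell, with a median of -0.03, against 8 to 24 higher and 21 to 43 lower in the 9 other fits (24 and 37 without stretched control replicate 5). Over all genes tested 5.32% rose and 3.61% fell, so the 15 rises were near the share of all genes. Zfp568 rose by 0.26 (adjusted p = 7.35e-06, SE 0.0332). Outside that list, Zfp82, Zfp94 and the similar Zfp119b fell, with log2 fold changes of -0.41 (adjusted p = 1.47e-05, SE 0.0548), -0.41 (adjusted p = 0.000576, SE 0.0735) and -0.38 (adjusted p = 0.00507, SE 0.0860). Reads of such families may be shared between near-identical copies. Lysmd4, the secreted leucine-rich protein Tsku and the FGF receptor adaptor Frs3 fell, with log2 fold changes of -0.39 (adjusted p = 0.000153, SE 0.0628), -0.43 (adjusted p = 0.0126, SE 0.110) and -0.36 (adjusted p = 0.0272, SE 0.102), and Frs3 lost its call in 4 leave-out fits. Znrd1as, with -0.45 (adjusted p = 0.000365, SE 0.0779), is antisense to its neighbour and uncertain, since use of strand in the counting is not stated. Among falls with small adjusted p, log2 fold changes were -0.33 for Thap3, -0.31 for the transcription factor Tfap4, -0.30 for the membrane protein Cln6 of the endoplasmic reticulum, -0.23 for glycophorin C (Gypc) and -0.23 for the Arf regulator Acap3, with adjusted p of 1.04e-05 to 4.64e-05 and no overlap. Of 12 Hox genes 3 fell and none rose, among them Hoxa7, with medians of 0.916 CPM with stretch and 1.53 CPM without and a log2 fold change of -0.65 (adjusted p = 0.0226, SE 0.182); Hoxa7 lost its call in 6 leave-out fits. Interferon response and antigen presentation genes had a median of -0.13 over 36 members, of which 7 were positive, but only Irf1 with -0.13 (adjusted p = 0.0143, SE 0.0338) and Psmb9 with -0.20 (adjusted p = 0.0247, SE 0.0571) passed, and Psmb9 was lost in 5 leave-out fits. In the 9 other fits 1 to 3 of the 36 fell, and the count of 2 was near the 3.61% of all genes tested that fell. At low levels, the clock factor Npas2 rose by 1.2 (adjusted p = 0.00787, SE 0.284) and the apolipoprotein L gene Apol8 by 1.39 (adjusted p = 6.34e-05, SE 0.205), with medians of 0.250 CPM with stretch and 0.101 CPM without for Npas2 and medians of 4.15 CPM with stretch and 1.60 CPM without for Apol8.

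Several basic programmes had no gene past the threshold in edgeR. Over all genes tested, 22.3% had an unadjusted p below 0.05. None of 13 mitochondrially encoded transcripts (1 at an unadjusted p below 0.05), 38 nuclear respiratory chain subunits (1), 49 ribosomal protein genes (1), 37 mitotic genes (6) or 21 Notch pathway genes (2) rose or fell. DESeq2 called 1 mitotic gene higher and 1 lower and none in the other 4 lists, and limma-voom called none in any of the 5. Medians were -0.07 for mitochondrially encoded transcripts, -0.04 for nuclear respiratory subunits, -0.07 for ribosomal protein genes and -0.02 for mitotic genes. Without non-stretched replicate 4, the library with the highest mitochondrial share, they were 0.03, -0.0081, -0.03 and -0.0081 for the same lists. Mitochondrially encoded transcripts took 2.50% to 2.90% of counts in stretched and 2.51% to 3.67% in non-stretched libraries, and ribosomal protein transcripts took 4.20% to 4.32% in stretched and 4.22% to 4.84% in non-stretched libraries. With stretched control replicate 5 left out of the fit, 5 ribosomal protein genes, 1 respiratory subunit and 2 mitotic genes fell and 1 mitotic gene rose. Without the 2 libraries that stood apart 3 mitotic genes rose and 4 fell, the most in the 9 other fits. Up to 2 Notch pathway genes fell in those fits.

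**Figure D3:**
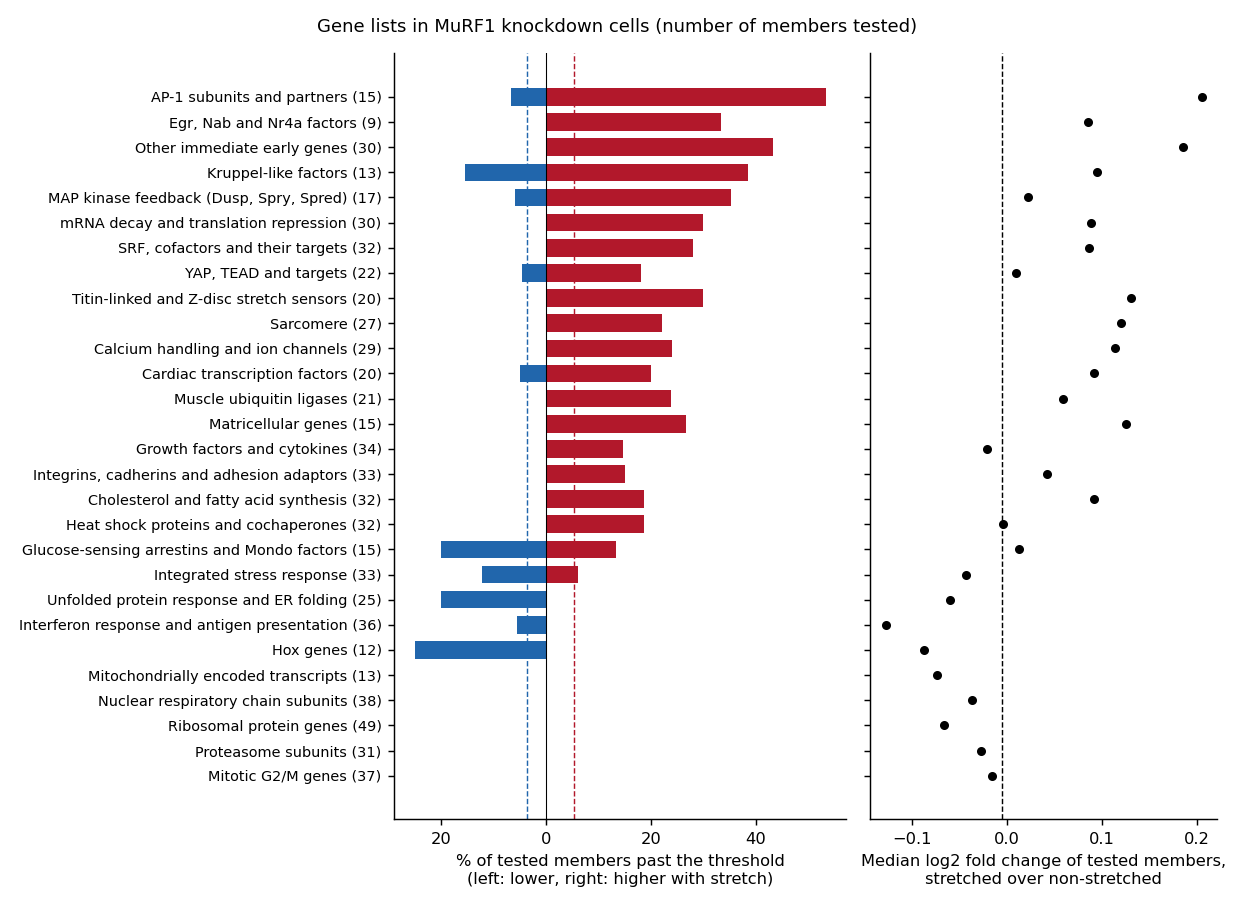
Share of tested members that passed in MuRF1 knockdown cells (left panel, x axis in % of members, higher with stretch to the right in red and lower to the left in blue; dashed lines mark 5.32% and 3.61% over all genes) and median log2 fold change (right panel, dashed line at the median of all genes, -0.0054) of 28 gene lists. AP-1, early, SRF and heart muscle lists lie to the right of all genes, endoplasmic reticulum, interferon and Hox lists to the left, and the lowest rows have no gene that passed.

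Genes that rose and fell differed in length and in the composition of their transcripts. The median transcript had 3744 bases in risen genes and 2442 bases in fallen genes, against 3007 bases in all genes tested with a known length. The genomic span had a median of 26.9 kb in risen genes, 13.5 kb in fallen genes and 23.2 kb in all genes. When the genes were put in 5 equal groups by length, 9.15% rose and 1.14% fell in the longest group, of 4926 bases or more. In the shortest group, up to 1708 bases, 2.79% rose and 4.37% fell. Median GC content was 49.9% in risen genes, 52.2% in fallen genes and 50.6% in all genes. The 3′ UTR had a median of 1381.5 bases in risen genes, 895 bases in fallen genes and 1014 bases in all genes, and pentamers of ATTTA, the core of AU-rich decay elements, stood at a median of 1.46 per kb in risen genes, 0.977 per kb in fallen genes and 1.24 per kb in all genes. Spearman's rho of length with the log2 fold change over 13613 genes of these libraries was 0.209 in knockdown cells and 0.0595 in control cells, and that of GC content was -0.0714 in knockdown cells and -0.308 in control cells. When length and GC content were removed from each library, 2077 genes passed, of which 52.8% rose and 1182 were among the 1287, and the median length was 3161 bases in risen and 3336 bases in fallen genes. Transcript length thus moved with the direction of the calls, and its part in them was not tested beyond this removal.

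**Figure D4:**
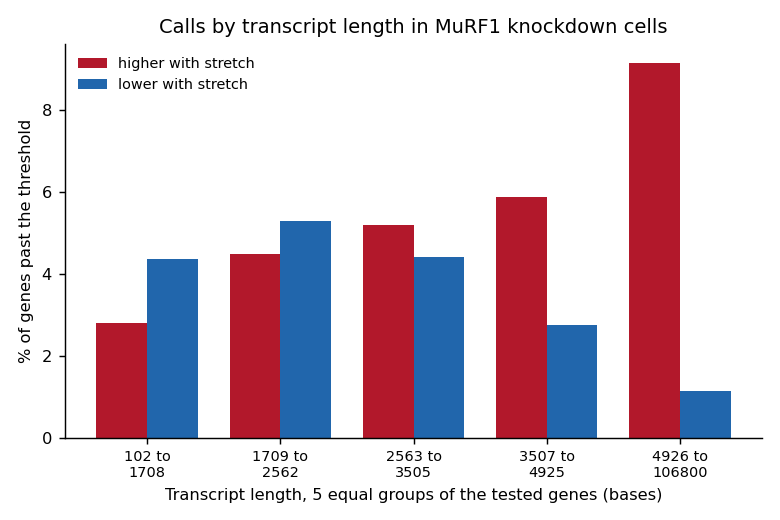
Share of genes (y axis, %) that were higher (red) or lower (blue) with stretch in MuRF1 knockdown cells, in 5 equal groups by transcript length in bases (x axis). The red bars climb to 9.15% in the longest group, where the blue bar is 1.14%, while in the shortest group blue, at 4.37%, exceeds red, at 2.79%.

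The same stretch in control cells gave 857 calls (5.95% of genes tested). That count rests on stretched control replicate 5: without it 2023 genes passed in control cells, against 1930 in knockdown cells, and 636 in both, which is 33.0% of the knockdown calls and 31.4% of the control calls. In a fit of the control libraries alone 377 passed. Of the 857, 388 were also called in knockdown cells, which is 30.1% of the knockdown calls and 45.3% of the control calls, and 387 of them had the same sign. Of the 1287 knockdown calls, 1135 (88.2%) had the same sign in control cells, against 65.9% of all genes tested. The median absolute log2 fold change of the knockdown calls was 0.19 in knockdown cells and 0.10 in control cells, and that of the control calls was 0.12 in knockdown cells and 0.19 in control cells. Each set thus had the larger changes in the cells it was chosen in. Among the genes called in both, the medians were 0.22 in knockdown and 0.20 in control cells. Failure to pass in one kind of cell does not show a difference, so the difference in response was tested itself.

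That test gave 3 genes (0.0208% of those tested), with 1355 genes at an unadjusted p below 0.05, and all 3 responded more in knockdown cells. Fosb had 5.59, 6.98 and 8.87 CPM in stretched control cells, against 3.57, 6.15 and 9.59 CPM in non-stretched control cells, a log2 fold change of 0.17 (adjusted p = 0.698, SE 0.211) there, and its response was larger in knockdown than in control cells by 1.87 on the log2 scale (adjusted p = 0.0181, SE 0.284). Fosb levels of knockdown and control cells overlapped in non-stretched libraries and lay apart in stretched libraries. Pdzd2, a protein with PDZ domains, had 74.9, 77.5 and 83.1 CPM in stretched cells, against 55.1, 64.4 and 68.2 CPM in non-stretched cells, a log2 fold change of 0.31 (adjusted p = 7.4e-05, SE 0.0469). In control cells it had 205, 219 and 257 CPM in stretched control cells, against 228, 235 and 241 CPM in non-stretched control cells, a log2 fold change of -0.07 (adjusted p = 0.361, SE 0.0453). Dkk3, a secreted Dickkopf family member, had 114, 129 and 138 CPM in stretched cells, against 99.2, 106 and 115 CPM in non-stretched cells, a log2 fold change of 0.27 (adjusted p = 5.53e-05, SE 0.0397). In control cells it had 407, 439 and 456 CPM in stretched control cells, against 429, 450.4 and 462 CPM in non-stretched control cells, a log2 fold change of -0.04 (adjusted p = 0.566, SE 0.0388). The differences in response were 0.38 (adjusted p = 0.0222, SE 0.0652) for Pdzd2 and 0.31 (adjusted p = 0.0301, SE 0.0555) for Dkk3, and for both genes the knockdown libraries lay below the control libraries without overlap. The Fosb difference kept its call in every alternative run, whereas Pdzd2 lost it with the authors' factors (adjusted p = 0.102) and without stretched knockdown replicate 1 (0.118) or 2 (0.0679), and Dkk3 lost it in 8 alternatives, at adjusted p of 0.0509 to 0.135. The count itself was unstable, at 109 genes without stretched control replicate 5 and 111 with DESeq2. Jun, Atf3 and Srf had differences in response close to 0 on the log2 scale, at 0.01 (adjusted p = 0.996, SE 0.147) for Jun, -0.03 (adjusted p = 0.970, SE 0.106) for Atf3 and -0.0010 (adjusted p = 0.999, SE 0.0633) for Srf. Not all early genes lay near 0. Differences that did not pass were 0.85 (adjusted p = 0.344, SE 0.299) for Fos and 0.89 (adjusted p = 0.326, SE 0.304) for Egr2. Fosl2 had 0.19 (adjusted p = 0.163, SE 0.0521), and the feedback gene Dusp8 went the other way, at -0.14 (adjusted p = 0.624, SE 0.0804).

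**Figure D5:**
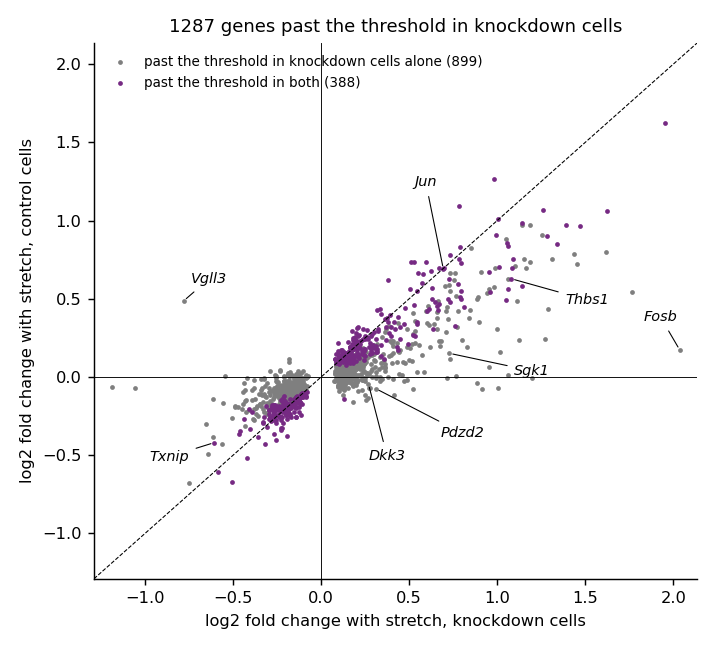
Log2 fold change with stretch in MuRF1 knockdown cells (x axis) against that in control cells (y axis) for the 1287 genes that passed in knockdown cells; purple points (388) passed in both kinds of cell, grey points (899) in knockdown cells alone, and the dashed line marks equal change. Fosb lies far below the line, at 2.04 against 0.17, and Pdzd2 and Dkk3 lie below 0 on the y axis; the knockdown values chose these genes, so a position below the line is partly the choice.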

How the data were processed

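The authors deposited estimated counts for 20351 protein-coding genes, with 36.6% of the values whole to a tolerance of 1e-09, and a normalized signal for the same genes, per the file headers. Build GRCm38.p6 and the tools kallisto 0.44.0, DESeq2 1.18.1 and R 3.4.4 are listed in the submitters' processing notes, and a stranded poly(A) kit in the labels' protocols. Not given in the sources used here are the annotation release, the way transcripts were summed and the use of strand. Estimated counts were rounded, filtered with edgeR's filterByExpr (minimum count 10, minimum total 15) and scaled by TMM. A robust quasi-likelihood model in edgeR 4.0.16 (R 4.3.3) with 1 mean per group over all 24 libraries (20 residual degrees of freedom) gave 14411 tests. P-values were adjusted by Benjamini-Hochberg over all of them, with a threshold of 0.05, and the SE is the log2 fold change over the root of the F statistic. The normalized signal served only as an alternative scaling (the authors' factors); limma 3.58.1 (voom), DESeq2 1.42.0, other filters and left-out libraries were the other alternatives. The model was also run on simulated counts, with changes larger than most seen here, so that run says little of calls as small as these. None of the 30 pairs of replicates within the knockdown groups came near sampling noise, with a chi-square per gene of 2.98 or more.

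Lists of genes, comparisons and named genes were chosen with earlier results of these data known. Named were Trim63 and its relatives, landmark early and hypertrophy genes, the genes past the test of the difference in response, and up to 3 members per list and direction with the smallest adjusted p. Also named were the 12 largest changes and 12 smallest adjusted p per direction at 5 CPM or more without overlap or clone names, of which 2 genes are not reported here. Transcript features came from GENCODE vM21 on GRCm38 (18431 symbols, and 240 more by RefSeq synonyms; 94.5% of tested genes had a length), and promoters from RefSeq. GC content and length were removed by splines fitted per library. Same-numbered libraries correlated by -0.00071 to 0.094 in their deviations, so numbers were not taken as pairs.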

Additional observations from a re-analysis of the deposited data

Results flagged for a closer look

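Of 230 sets of 6 knockdown libraries examined, for the genes named above, 18 held 1 library far from the other 5 by Dixon's criterion, which chance gives in about 1 of 20 sets. Among stretched libraries, replicate 1 was the highest for Trim63 (83.5 CPM against 60.0 to 68.0), replicate 2 the highest for Klf11 (45.3 CPM against 40.9 to 41.5) and the lowest for Cldn15 (2.30 CPM against 3.26 to 3.80), and replicate 4 the highest for Lima1 (157 CPM against 147 to 150). Replicate 3 was the lowest for Corin (21.9 CPM against 25.9 to 28.1) and Gata5 (3.99 CPM against 4.88 to 5.23) and the highest for Zfp94 (5.02 CPM against 4.43 to 4.65), and replicate 6 the lowest for Nr4a1 (31.5 CPM against 32.4 to 32.9). Among non-stretched libraries, replicate 4 was the highest for Pln (50.3 CPM against 38.8 to 42.2), Pdia6 (693 CPM against 577 to 612), Zfp119b (13.2 CPM against 9.97 to 10.9) and Tsku (10.9 CPM against 6.81 to 7.61), and the lowest for Cacna1c (23.1 CPM against 27.9 to 29.8). Replicate 6 was the highest for Jun (112 CPM against 77.3 to 89.7) and Thbs1 (42.1 CPM against 32.9 to 35.0), and replicate 2 the highest for Trib3 (112 CPM against 99.0 to 103) and Lysmd4 (15.1 CPM against 13.2 to 13.7) and the lowest for Egr4 (0.636 CPM against 0.860 to 0.971).

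The response to stretch differed between knockdown and control cells for 3 genes by the test of that difference in edgeR, by 1.87 on the log2 scale for Fosb (adjusted p = 0.0181), 0.38 for Pdzd2 (adjusted p = 0.0222) and 0.31 for Dkk3 (adjusted p = 0.0301).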

How the results depend on the processing

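Of 118 values of single genes, 101 kept their direction and their side of the threshold in all alternatives, 16 lost a call in at least 1, and Egr1, which never passed, ranged from -0.25 to 0.019 with 1 library left out and turned positive without non-stretched knockdown replicate 6. The number of genes past the threshold in knockdown cells, 1287, was 2077 with GC content and length removed and 2216 without the 2 libraries that stood apart, and 856 to 1930 when 1 library was left out, lowest without stretched knockdown replicate 4 and highest without stretched control replicate 5. The 520 falls were 342 with the authors' factors, 981 with GC content and length removed, 1112 without both libraries and 296 to 848 with 1 library left out, lowest without stretched replicate 4, 310 without non-stretched replicate 2 and highest without stretched control replicate 5. The 857 calls in control cells were 566 with the authors' factors, 377 in a fit of the control libraries alone, 1367 with GC content and length removed, 2933 without both libraries and 2023 without stretched control replicate 5. The 3 differences in response were 111 with DESeq2, 1 with the authors' factors, 45 with the library code letter as a term, 38 with GC content and length removed, 163 without both libraries and 1 to 109 with 1 library left out (1 without stretched knockdown replicate 1 or 2; 17, 5 and 48 without non-stretched replicates 1, 5 and 6; 109 without stretched control replicate 5). With the replicate block, 1403 genes passed in knockdown cells (1232 shared) and 9 in the difference; of the 6 replicate numbers only number 6 correlated best with itself. Removing GC content and length and leaving out both libraries were chosen after seeing the data. The cause of these changes was not tested. Depth limits scarce genes most, and the labels do not say whether replicates are separate cultures.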
